A study of Homo sapiens with 45 samples.

Results

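The 39 protein-coding HOX genes of the HOXA, HOXB, HOXC and HOXD clusters were described in 15 untreated, wild-type breast cancer cell lines. The members were the rows of the count table that matched a protein-coding gene whose symbol is HOXA, HOXB, HOXC or HOXD followed by a number, 39 of 64485 rows in all. Total RNA depleted of ribosomal RNA was sequenced in 3 libraries of each line, 45 in all, and reads were counted per gene. The line was the group. HCC1806, HCC38, HCC1395, HCC70, HCC1143, HCC1937, HCC1187 and BT-549 were grown in RPMI medium, and MDA-MB-436, MDA-MB-157, MDA-MB-468, MDA-MB-453 and MDA-MB-231 in L-15. BT-20 was grown in EMEM and Hs578T in DMEM. Insulin was added for BT-20, BT-549 and MDA-MB-436, and glutathione also for MDA-MB-436. Each is an established line. Wild-type here means only that the labels name no engineered allele, and says nothing of mutations that a tumour line may carry. Nothing in the labels says that the 3 libraries were separate cultures. The p-values therefore measure the spread between these libraries, which may be technical.

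HOX genes encode homeodomain transcription factors that give cells of the embryo their position along the body axis. They lie in 4 clusters that arose by duplication, and genes at matching places in different clusters (paralogs) share a group number, from the 3′ end, which is read early and towards the head, to the 5′ end, which is read late and towards the tail. Adult epithelia, the mammary gland among them, keep part of this pattern, and Polycomb and trithorax complexes hold stretches of a cluster silent or active through cell divisions. HOX proteins bind DNA together with TALE homeodomain cofactors of the PBX, MEIS and PKNOX families.

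In GENCODE release 29 on GRCh38 the 11 HOXA genes spanned 107 kb on the minus strand at chr7:27092993-27200106. The 10 HOXB genes spanned 201 kb on the minus strand at chr17:48528526-48729178, where HOXB13 lies apart from the rest. The 9 HOXC genes lay on the plus strand at chr12:53938765-54056030 and the 9 HOXD genes on the plus strand at chr2:176092891-176190907. Of the 39 genes, 18 shared exon bases with another gene on the same strand and 19 with a gene on the opposite strand, some with both, and 14 shared none. No source used here gives the counting's strand setting or how it treated overlapping genes, so a count of an overlapping gene may hold or lack reads of its neighbour. Of their exon bases, HOXC5 shared 59.9%, HOXD3 62.2% and HOXD4 80.5% with genes on the same strand. HOXA7 shared 62.5% and HOXD1 58.1% with genes on the opposite strand.

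Libraries held 2312138 to 14653677 counts, with a median of 6263573, of which 79 to 2666, with a median of 609, fell on HOX genes. At these depths 1 CPM (counts scaled to a common library size by TMM) was reached with a small number of counts that grew with depth. HOXC4, for example, was at 1.17 CPM with 4 counts in Hs578T replicate 2 and at 1.35 CPM with 16 in HCC70 replicate 3. A gene with a mean of at least 1 CPM over a line's 3 libraries was called expressed there. The labels call all lines epithelial. All 12 epithelial markers examined reached 1 CPM in 9 lines, but 5 did in HCC1395 and in MDA-MB-436, 6 in BT-549 and in Hs578T, 8 in MDA-MB-157 and 10 in MDA-MB-231. CDH1, the cadherin of epithelial junctions, was at 0.42 CPM in HCC1395. The markers' summed CPM ran from 13.4 in BT-549 to 9901 in BT-20, and that of 12 mesenchymal markers from 49.7 in MDA-MB-453 to 10740 in Hs578T. Across the 15 lines the correlation of each cluster's level with either marker score lay between -0.39 and 0.349 as a description. Of the 15 lines 4 (Hs578T, MDA-MB-231, HCC38 and HCC1143) were sequenced in other runs than the rest.

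The lines differed widely in how much of the 4 clusters they expressed. HCC1806 expressed 26 of the 39 genes and HCC1395 25, whereas HCC1187 and MDA-MB-231 each expressed 3. HCC1143 expressed 7 and MDA-MB-453 expressed 9, and the other 9 lines 15 to 19. In HCC1187 the 3 genes were HOXC9, HOXC10 and HOXC13, and in MDA-MB-231 they were HOXA13, HOXB9 and HOXD1, so these sparse lines had none in common. Of the 585 gene and line pairs 223 (38.1%) were expressed, 74 lay between 0.5 and 1 CPM, 41 between 1 and 2 CPM, and 70 had no count in any of the line's 3 libraries. In bulk libraries a low level in every cell and a higher level in few cells cannot be told apart.

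By cluster, 59.3% of the HOXC pairs were expressed, 40% of the HOXA and of the HOXB pairs, and 12.6% of the HOXD pairs. HOXC was the highest and HOXD the lowest at every threshold tried. Genes of groups 9 to 13, at the 5′ ends, were expressed in 46.2% of pairs, those of groups 4 to 8 in 32.9% and those of groups 1 to 3 in 31.7%. HOXC has no gene of groups 1 to 3, and HOXC9 to HOXC13 were expressed in 7 to 14 lines each. These shares therefore do not separate position from cluster. Every line expressed at least 1 gene of group 9 and at least 1 of group 13, and 14 expressed a gene of group 10, all but MDA-MB-231. Group 8 was expressed in 6 lines, the fewest of the 13 groups. Groups 4, 9 and 13 have 4 genes each and the others 2 or 3, and a larger group has more genes that can reach the threshold. HOXC9 was expressed in 14 lines and HOXC10 in 13, and HOXB1, HOXC5, HOXD3 and HOXD12 in none.

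Some lines expressed uninterrupted stretches of a cluster and others scattered genes. BT-549 expressed the 7 neighbours from HOXB2 to HOXB8 and no HOXB gene 5′ of them, and HCC1395 expressed the 7 from HOXA5 to HOXA13. HOXC9 to HOXC13 were all expressed in HCC1143, HCC1806, HCC38, HCC70, MDA-MB-157 and MDA-MB-468, and in BT-549 the stretch began at HOXC6. BT-20 expressed HOXB3 to HOXB7 and HCC1806 expressed HOXD9 to HOXD11. Of the HOXA genes, by contrast, HCC38 expressed 3 and HCC70 and MDA-MB-157 4 each, with no 2 of them neighbours, and the 3 HOXC genes of MDA-MB-436 were also apart. The longest HOXB stretch was 2 genes in HCC1806, of 6 expressed, and in HCC1937, of 5 expressed.

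**Figure D1:**
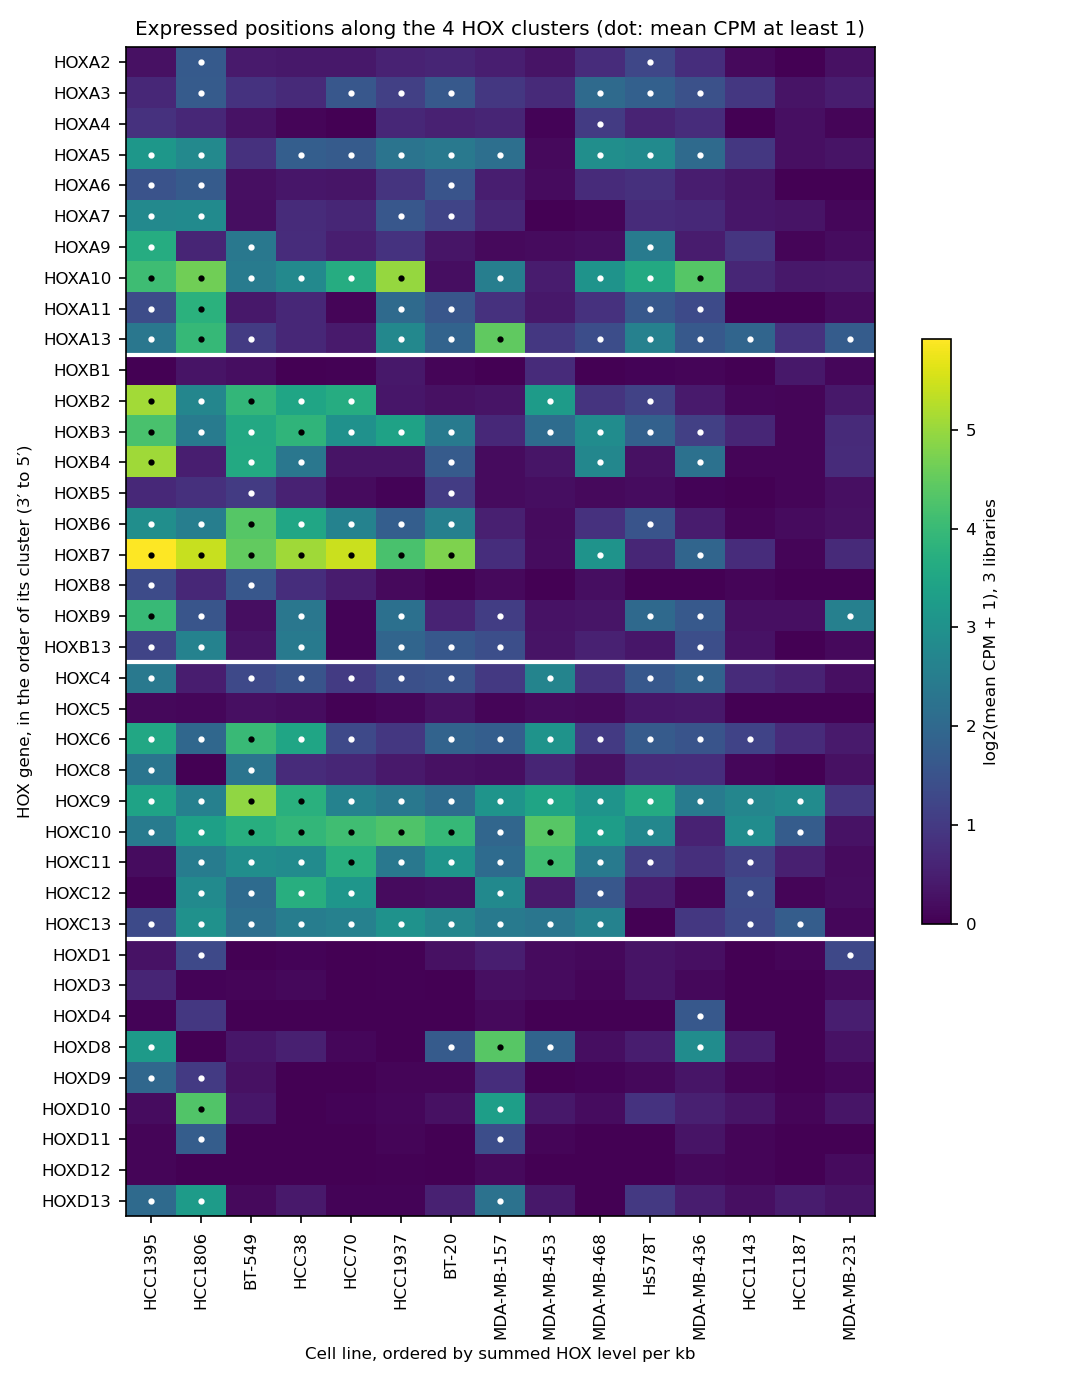
Each column is a cell line, ordered by its summed HOX level per kb, each row a HOX gene in the order of its cluster from 3′ to 5′, and the colour is log2 of the mean CPM of 3 libraries plus 1, with a dot where the mean was at least 1 CPM. Colours compare lines within a row, since CPM does not correct for gene length. Of the 39 genes, 1 is not shown. The columns of HCC1806 and HCC1395 hold the most dots, and those of HCC1187 and MDA-MB-231 hold 3 each.

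To compare genes and clusters with each other, CPM was divided by the length of a gene's merged exons. Summed over the 39 genes, the level was 115.5 ± 0.884 CPM per kb (SD, n = 3 libraries, here and for the sums below) in HCC1395 and 91.4 ± 4.29 in HCC1806. It was 11.7 ± 0.591 in HCC1143, 7.57 ± 0.491 in HCC1187 and 6.58 ± 0.315 in MDA-MB-231, and between 26.2 and 72.6 in the other 10 lines. The libraries of the 3 lowest lines did not overlap with those of any other line.

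The make-up of that sum differed as well. HOXB genes gave 63.8% ± 1.95 of it in HCC1395. HOXC genes gave 81% ± 6.45 in HCC1187, 77.9% ± 0.464 in MDA-MB-453 and 69.6% ± 3.19 in HCC1143. HOXA genes gave their highest shares in Hs578T (45.5% ± 3.05) and MDA-MB-436 (43.3% ± 1.55), where the summed HOXA levels of 13.4 and 11.4 CPM per kb were below those of HCC1806 (28.2), HCC1395 (20.1) and HCC1937 (17.1). HOXD genes summed to 14.1 ± 2.28 CPM per kb in MDA-MB-157, which was 37.8% of its HOX level, and to 13.8 ± 0.742 in HCC1806, whose libraries overlapped with those of MDA-MB-157. HCC1395 followed with a HOXD sum of 6.54 and MDA-MB-436 with 4.62. In the other 11 lines the HOXD sum was 0.0664 to 1.47 CPM per kb.

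**Figure D2:**
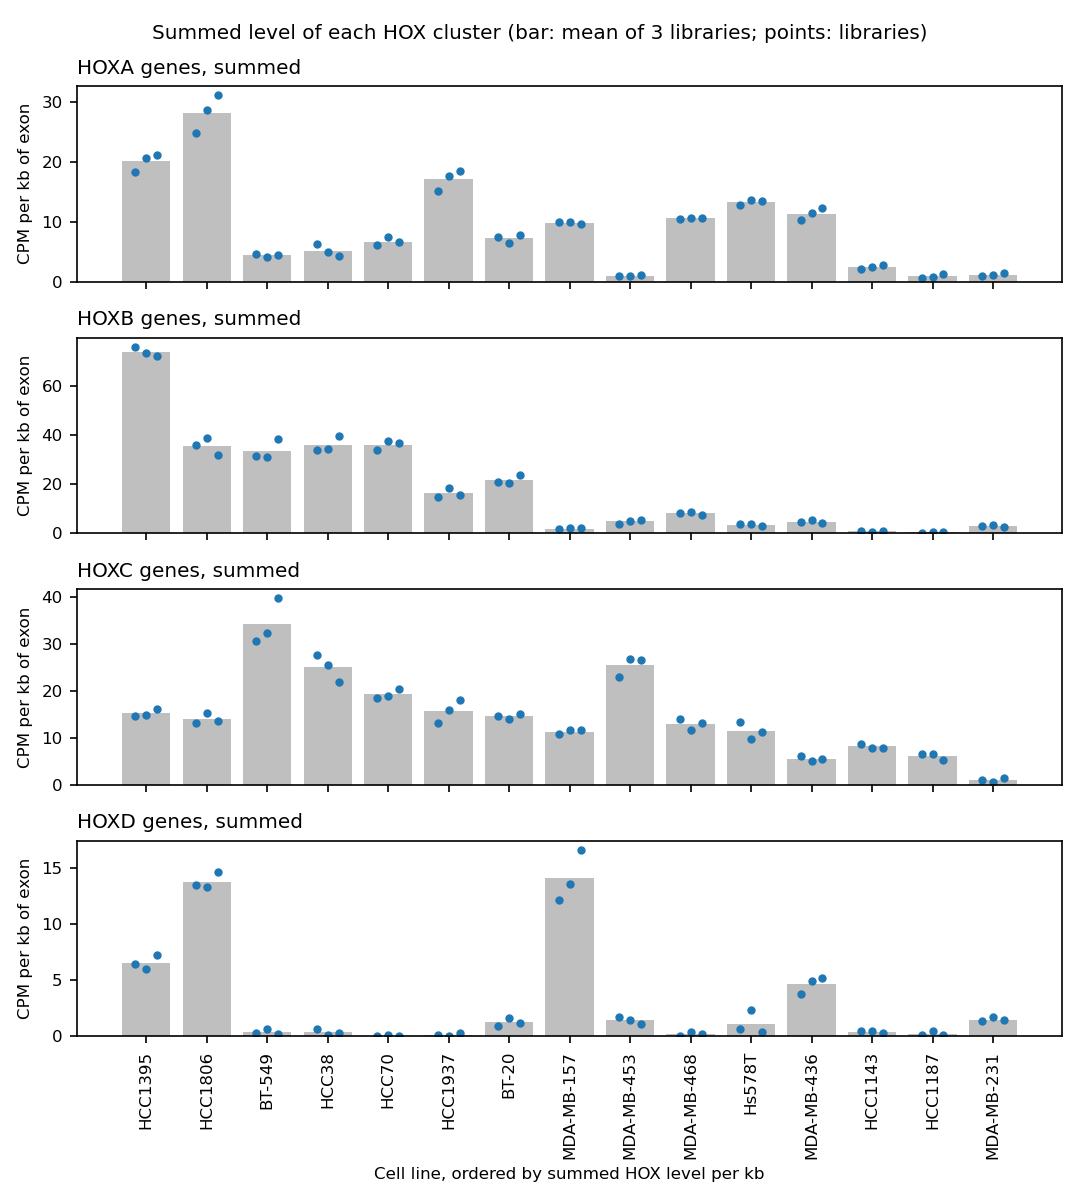
Summed CPM per kb of exon of each cluster (4 panels) in each cell line, with bars for the mean of 3 libraries and points for the libraries. HOXB in HCC1395 reaches 73.7 CPM per kb, HOXD stands above 4 in HCC1395, HCC1806, MDA-MB-157 and MDA-MB-436, and HOXC is lowest in MDA-MB-231.

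A single gene often made most of a cluster's sum. HOXB7 had the highest level per kb of the 39 genes by its maximum (38.8 CPM per kb in HCC1395) and by its median over lines (4.71). It gave 79% of the HOXB sum in BT-20, 77.7% in HCC1806 and 77% in HCC70. HOXC9 came next by its maximum, with 17.7 CPM per kb in BT-549, and HOXC10 by its median, with 3.76, close to the 3.68 of HOXC9.

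Whether the lines differed beyond the spread between libraries was tested with edgeR's quasi-likelihood test. Of 20587 genes that passed the filter on low counts, 98.2% differed among the 15 lines at a Benjamini-Hochberg adjusted p of 0.05, and all 32 HOX genes that passed did so, with adjusted p from 7.364e-33 to 3.306e-05. A gene high in a single line passes that filter through that line, so this count says little about HOX genes in particular. HOXA4, HOXB1, HOXB5, HOXC5, HOXD1, HOXD3 and HOXD12 were not tested, having 9 to 116 counts over all 45 libraries.

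Each line was then set against the equally weighted mean of the other 14 (adjusted p of 0.05 and a log2 fold change of at least 1). Over the 480 HOX gene and line pairs edgeR called 160 higher (33.3%) and 89 lower (18.5%), against 16.2% and 12.5% of the pairs of all genes. In this count model the mean of the other lines has no lower bound where 1 of them has no count at all, which was so for 14 of the 32 HOX genes tested and for 8.39% of all genes tested. A fit with limma on log2 CPM with a prior count of 2, chosen after seeing the data, does not have this limit. It called 125 higher (26%) and 130 lower (27.1%), against 13.3% and 13.5% of the pairs of all genes, so higher calls were 49% of its HOX calls. All 125 were among edgeR's 160, limma also called lower 87 of edgeR's 89, and no pair was called in opposite directions. Without replicate 1 of every line edgeR's lower calls numbered 56, and without replicate 2 they numbered 58.

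By line, edgeR called 23 HOX genes higher and 1 lower in HCC1806, where 15.9% of all genes were called higher and 13.7% lower. In HCC1395 it called 21 higher and 2 lower, beside 14.4% and 17.7% of all genes. The opposite was seen in HCC1187, with 0 higher and 19 lower (16.4% and 12.5% of all genes), and in MDA-MB-231, with 2 higher and 14 lower (15% and 10.5%). HCC1143 had 1 higher and 8 lower (18.4% and 11.3%) and MDA-MB-453 7 higher and 9 lower (17.7% and 14.6%). By limma, HCC1806 and HCC1395 each had 19 HOX genes higher (13.8% and 12.7% of all genes). Lower calls by limma numbered 24 in HCC1187 (14% of all genes), 21 in MDA-MB-231 (12%), 13 in HCC1143 (12.6%) and 13 in MDA-MB-453 (16%). The other 9 lines had 9 to 14 higher and 2 to 6 lower HOX calls by edgeR, where 13.3% to 20.9% of all genes were called higher and 9.19% to 22.9% lower. Among them were Hs578T, with 10 higher and 3 lower (20.9% and 9.56% of all genes), and HCC38 with 14 higher and 2 lower (13.8% and 10.2%). By limma these 9 lines had 5 to 13 higher and 2 to 8 lower HOX calls, beside 10.5% to 16.7% and 10.5% to 21.9% of all genes. The balance of calls turned in MDA-MB-436, with 5 higher and 7 lower by limma against 12 and 6 by edgeR, and in MDA-MB-468, with 5 and 6 against 9 and 3. In MDA-MB-157 limma called 7 in each direction, against 10 higher and 6 lower by edgeR.

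In the HOXA cluster, HOXA2, a gene of hindbrain and facial neural crest, was expressed in 2 lines only. Its libraries were at 1.87, 1.95 and 2.72 CPM in HCC1806 and at 0.393, 2.34 and 1.45 CPM in Hs578T, whose replicate 2 was the library with the fewest counts of all. The HCC1806 libraries stood above every library outside Hs578T, and the Hs578T libraries overlapped with those of other lines. HOXA4 was expressed in MDA-MB-468 only, at 0.68, 1.93 and 0.494 CPM. Replicate 2 carried that mean, and without replicate 2 of every line HOXA4 was expressed in no line. HOXA5, which acts in lung development, was expressed in 10 lines with a maximum in HCC1395, at 6.97, 8.2 and 7.9 CPM, overlapping with HCC1806, Hs578T and MDA-MB-468.

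HOXA9 and HOXA10, known from blood progenitors and, for HOXA10, from the uterus, differed in their pattern although they are neighbours. HOXA9 was expressed in 3 lines, at 9.55, 11.7 and 13.4 CPM in HCC1395, 5.63, 2.92 and 5.08 in Hs578T, and 3.76, 3.37 and 5.27 in BT-549. No library of another line exceeded 1.73 CPM. In Hs578T it was the HOX gene with the largest edgeR log2 fold change against the other lines, 3.34 ± 0.41 (SE), adjusted p = 1.77e-09. HOXA10 was expressed in 10 lines and was highest in HCC1937, at 24.4, 34.4 and 33 CPM, with a log2 fold change of 3.38 ± 0.13 (SE) by edgeR, adjusted p = 4.174e-26. Those libraries overlapped with the 22.1 to 27.1 CPM of HCC1806. In BT-20, HCC1143, HCC1187, MDA-MB-231 and MDA-MB-453 no HOXA10 library exceeded 0.825 CPM, while none of the other 10 lines fell below 3.69, so the lines fell into separate low and high sets.

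At the 5′ end, HOXA11, which acts in the limb and the uterus, was at 12.5, 12.7 and 13.2 CPM in HCC1806, above every other library, and had no count in HCC1143 or HCC1187. HOXA13, which acts in the digits and the urogenital tract, was at 21, 20 and 22.1 CPM in MDA-MB-157 (edgeR log2 fold change 3.38 ± 0.17, SE) and at 13.7, 14.8 and 14.9 CPM in HCC1806. These did not overlap with each other or with any other line. It was also 1 of the few HOX genes seen in MDA-MB-231, at 2.01, 2.75 and 2.08 CPM, within the range of the other lines. HCC1187 and MDA-MB-453 expressed no HOXA gene, and HCC1143 and MDA-MB-231 expressed HOXA13 alone.

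In the HOXB cluster, HOXB1, a hindbrain gene, was expressed nowhere and was highest in MDA-MB-453, at 0.188, 0.691 and 1.09 CPM. HOXB2 and HOXB3 follow it from the 3′ end. HOXB2 was highest in HCC1395, at 26.1, 38.6 and 34.4 CPM, above every other library. MDA-MB-453 expressed HOXB2, at 7.13, 9.16 and 9.12 CPM, and HOXB3, at 3, 3.46 and 3.27 CPM, but no HOXB library of that line at HOXB4 or further 5′ exceeded 0.544 CPM. HOXB4, known for expanding blood stem cells, was at 34.7, 31.6 and 31.8 CPM in HCC1395, with the largest log2 fold change of that line, 5.66 ± 0.17 (SE), adjusted p = 1.517e-30 by edgeR. BT-549 followed at 10.1, 9.14 and 14 CPM and MDA-MB-468 at 5.95, 5.65 and 5.27 CPM (log2 fold change 2.95 ± 0.25, SE, the largest of that line). HOXB4 libraries of these 3 lines did not overlap with each other or with any other line.

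HOXB5 was expressed in 2 lines, just above the threshold, at 1.08, 0.755 and 1.41 CPM in BT-20 and 1.2, 0.802 and 1.12 CPM in BT-549, and these overlapped with the 1.25, 0 and 1.02 CPM of HCC1806. HOXB6, a gene of the trunk, was highest in BT-549, at 17.6, 18.4 and 22.2 CPM. HOXB7, which patterns the ribs, was the most abundant HOX gene per kb. Its libraries were at 65.5, 56.6 and 55.8 CPM in HCC1395, 44, 46.2 and 35.8 in HCC1806 and 39.6, 44.4 and 43 in HCC70. HCC38 was at 28.7, 32.4 and 36 CPM, BT-20 at 24.9, 24.6 and 28.8, BT-549 at 19.5, 20.2 and 24.6, and HCC1937 at 17.1, 20.7 and 14.8. MDA-MB-468 was at 6.26 to 8.54 CPM and MDA-MB-436 at 1.83 to 3.85. HCC1395 lay above all others, HCC1806 overlapped with HCC70 and HCC38, HCC38 with BT-20, and BT-549 with HCC1937, while MDA-MB-468 and MDA-MB-436 lay apart from each other and from the rest. No library of the other 6 lines exceeded 1.17 CPM, and HOXB7 in HCC1187 was seen in 1 of 3 libraries (0, 0 and 0.178 CPM). In BT-20 HOXB7 was the HOX gene with the largest log2 fold change, 2.85 ± 0.15 (SE), adjusted p = 2.425e-21 by edgeR.

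HOXB8, the gene next to HOXB7 and a regulator of myeloid progenitors, was expressed in 2 lines. It was at 1.71, 1.6 and 2.8 CPM in BT-549 and 1.82, 0.965 and 1.85 CPM in HCC1395, which overlapped, and no other library exceeded 0.926 CPM. It had no count in BT-20, HCC1187, Hs578T, MDA-MB-231, MDA-MB-436 and MDA-MB-453. By limma the log2 fold change in BT-549 was 2.33 ± 0.26 (SE), adjusted p = 2.386e-10. Per kb HOXB8 ranked below HOXB7 in both measures, with a maximum of 0.994 against 38.8 CPM per kb.

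HOXB8 mRNA is a textbook target of miR-196, which is itself encoded within the HOX clusters. The RefSeq mature sequences on GRCh38.p14 are given here because their match to HOXB8 stood apart among the 39 genes, with the seed (bases 2 to 8) in capitals. MIR196A1 lies at chr17:48632490-48632559 on the minus strand, MIR196A2 at chr12:53991738-53991847 on the plus strand and MIR196B at chr7:27169480-27169563 on the minus strand, and both mature forms share the seed.
miR-196a-5p: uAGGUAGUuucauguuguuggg
miR-196b-5p: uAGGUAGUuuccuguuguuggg
Site in HOXB8: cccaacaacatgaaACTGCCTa
The site, with the bases opposite the seed in capitals, is at positions 1378 to 1399 of the 1823-base transcript HOXB8-201, in its 3′ UTR. Antiparallel to miR-196a-5p it had 21 Watson-Crick pairs, 1 G:U pair and 0 mismatches. HOXB8 was the only member of the 39 with a site of at most 2 mismatches, and that G:U pair falls in the seed. An exact match to the 7-base seed, in at least 1 transcript, was found in 10 of the 39 genes, HOXB8 not among them. Counted per transcript, it was found in 11.3% of all 83129 protein-coding transcripts searched. A gene with several transcripts has more chances of a match, so the count of genes and the share of transcripts cannot be compared. Mature miRNA levels were not analysed here.

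HOXB9, which acts with its paralogs in mammary gland development, was highest in HCC1395, at 15.9, 12.9 and 15.4 CPM, above every other library. In MDA-MB-231 it was the most abundant HOX gene per kb, at 3.81, 6.3 and 4.79 CPM, overlapping with HCC38, HCC1937 and Hs578T, while no library of HOXB7, HOXB8 or HOXB13 exceeded 0.803 CPM there. HOXB13, known from the prostate and lying apart from the rest of the cluster, was expressed in 7 lines, with the highest means in HCC1806 and HCC38, at 5.46, 4.88 and 4.99 CPM and 4.94, 3 and 5.2 CPM.

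The HOXC cluster was expressed most broadly. Its 3′ genes HOXC4 and HOXC5 share a RefSeq start on GRCh38.p14, and the 250 bases before it are shown. In GENCODE, which gave the gene positions, HOXC4 started at chr12:54016931, next to this window, and HOXC5 at chr12:54032853, farther downstream. The window therefore does not lie directly upstream of that HOXC5 model. The counts below are not a comparison behind a shared upstream sequence. Capitals mark CCAAT on either strand, the only one of the 4 motifs searched that the window holds.
HOXC4 and HOXC5, chr12:54016638-54016887, plus strand: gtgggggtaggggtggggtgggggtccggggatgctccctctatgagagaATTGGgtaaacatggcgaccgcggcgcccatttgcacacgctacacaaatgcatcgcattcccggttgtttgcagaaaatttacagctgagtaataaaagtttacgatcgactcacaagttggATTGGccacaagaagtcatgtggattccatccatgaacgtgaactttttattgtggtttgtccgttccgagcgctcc
HOXC4 was expressed in 9 lines and was highest in MDA-MB-453, at 3.94, 5.88 and 6.26 CPM, overlapping with HCC1395. HOXC5 was expressed in none, its highest library being MDA-MB-436 replicate 1 at 0.651 CPM. This HOXC5 entry shares 59.9% of its exon bases with other genes on its strand, among them another GENCODE entry also named HOXC5. That entry is not a member, and its counts are not given here. A low count therefore cannot be told apart from reads that were set aside or given to those genes. HOXC6 was expressed in 12 lines and was highest in BT-549, at 11.1, 12.8 and 21 CPM, overlapping with HCC1395 and HCC38. HOXC8, which patterns the thoracic spinal cord, was expressed in 2 lines, at 3.64, 3.98 and 4.21 CPM in HCC1395 and 3.42, 3.69 and 4.37 CPM in BT-549. These overlapped, and every other library was at 1.17 CPM or less.

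HOXC9, which patterns motor neurons of the trunk, was highest in BT-549, at 27.9, 29 and 32.4 CPM, above every other library. It was at 1, 0.162 and 1.46 CPM in MDA-MB-231, below every library of the other 14 lines, the lowest of which was at 2.67 CPM. HOXC10, a gene of the lumbar region, was highest in MDA-MB-453, at 16.1, 21.9 and 21.4 CPM, which overlapped with BT-20, HCC1937, HCC38 and HCC70, and was expressed neither in MDA-MB-231 nor in MDA-MB-436, where no library exceeded 0.655 CPM. HOXC11 was also highest in MDA-MB-453, at 15, 16.8 and 16.3 CPM. Its log2 fold change there of 3.03 ± 0.17 (SE, adjusted p = 3.237e-20, edgeR) was the largest of that line, and its libraries lay above the 10.2, 13.1 and 13.8 CPM of HCC70, the next line. HCC1395, rich in HOXA and HOXB transcripts, had no HOXC11 library above 0.362 CPM.

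HOXC12, next to the 5′ end, was at 15.1, 9.72 and 11.1 CPM in HCC38 (edgeR log2 fold change 4.36 ± 0.26, SE, adjusted p = 2.438e-19) and at 7.67, 6.59 and 8.51 CPM in HCC70 (3.66 ± 0.27, SE, adjusted p = 2.673e-16). The libraries of HCC38 and HCC70 did not overlap. HCC1806 and MDA-MB-157 followed at 4.83 to 6.92 CPM, and both overlapped with HCC70. In HCC1143 it was at 1.36, 1.65 and 1.65 CPM and was that line's only HOX gene called higher by edgeR, at 1.22 ± 0.41 (SE), adjusted p = 0.009552. By limma the same difference was 0.55 and was not called, and in HCC1143 no HOX gene was called higher by limma. In the 8 lines that did not express HOXC12 no library exceeded 0.877 CPM.

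HOXC13, the gene at the 5′ end of the cluster, which acts in hair and nail, was expressed in 12 lines. Its highest mean was in HCC1937, at 5.07, 8.09 and 8.2 CPM, overlapping with HCC1806, BT-20, HCC38, HCC70 and MDA-MB-468. It had no count in any of the 3 Hs578T libraries. Taking 3 counts over the summed libraries as the floor, it was at least 22.9-fold lower there than the median of the other lines. In MDA-MB-231 it was at 0.201, 0 and 0 CPM, and limma gave a log2 difference of -3.14 ± 0.22 (SE), adjusted p = 7.04e-16. Only Hs578T, MDA-MB-231 and MDA-MB-436, whose libraries were at 0.814, 0.444 and 1.57 CPM, did not express it.

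The HOXD genes were expressed in few lines each. HOXD1 was expressed in 2 lines, at 1.72, 0.977 and 1.7 CPM in HCC1806 and 1.2, 1.62 and 1.46 CPM in MDA-MB-231. These overlapped, and no other library exceeded 0.708 CPM. HOXD4 was expressed only in MDA-MB-436, at 1.63, 2.07 and 2.62 CPM, followed by HCC1806 at 0.624, 0.977 and 1.25 CPM, and had no count in 10 lines. By limma the log2 difference in MDA-MB-436 was 2.72 ± 0.19 (SE), adjusted p = 9.507e-16. MDA-MB-231 had 1, 4 and 2 HOXD4 counts, which edgeR called higher and limma did not (log2 difference 0.82). For HOXD4, whose exon bases were shared with another gene on its strand to 80.5%, reads of that gene were not separated.

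HOXD8, the next member towards the 5′ end, was at 17.2, 20 and 22.3 CPM in MDA-MB-157, 7.58, 8.69 and 8.72 in HCC1395 and 4.88, 7.4 and 6.68 in MDA-MB-436. These did not overlap, and MDA-MB-453 and BT-20 followed at 1.89 to 3.19 CPM. It had no count in HCC1187, HCC1806 and HCC1937. By limma the log2 difference in MDA-MB-157 was 4.53 ± 0.27 (SE), adjusted p = 1.11e-18. HOXD9 was expressed in 2 lines, at 2.73, 2.77 and 3.39 CPM in HCC1395 and 0.78, 1.14 and 1.13 CPM in HCC1806, which did not overlap.

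HOXD10, HOXD11 and HOXD13, which act in the limbs and the digits, were highest in HCC1806 and MDA-MB-157. HOXD10 was at 17.2, 19.2 and 19.6 CPM in HCC1806 and 7.1, 8.87 and 11 CPM in MDA-MB-157. Its limma log2 differences were 5.04 ± 0.37 and 3.92 ± 0.37 (SE), with adjusted p of 1.178e-15 and 1.677e-12. The lines did not overlap, and outside them only Hs578T replicate 2 reached 1 CPM, at 2.34 CPM, its other libraries being at 0.131 and 0 CPM. HOXD11 was at 2.34, 2.12 and 2.61 CPM in HCC1806 and 1.26, 1.51 and 2.12 CPM in MDA-MB-157, which just overlapped, and was at most 0.393 CPM in any other library. HOXD13 was at 9.52, 7.49 and 8.39 CPM in HCC1806, 3.79, 3.4 and 3.89 in MDA-MB-157 and 3.18, 2.17 and 4 in HCC1395. HCC1806 stood above the other two, which overlapped. So HCC1806 had HOXD10 but no HOXD8 count, and HCC1395 had HOXD8 and HOXD13 with HOXD10 at 0.303, 0.121 and 0 CPM. HOXD3 and HOXD12 were expressed in no line.

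The 250 bases before a RefSeq start (GRCh38.p14, all on the plus strand) are shown for the HOXD genes with the highest levels, HOXD8, HOXD10 and HOXD13. In GENCODE, HOXD10 as counted started at chr2:176108790, so its window lies within that model and not upstream of it. The HOXD8 window runs just past the GENCODE start at chr2:176129694, and the HOXD13 window ends before the start at chr2:176092891. Capitals mark CACGTG (the E-box), CCAAT (the CCAAT box), TATAAA (the TATA box) or TGATTNAT (a site of HOX and PBX proteins) on either strand, where neighbouring matches may join.
HOXD8, chr2:176129455-176129704: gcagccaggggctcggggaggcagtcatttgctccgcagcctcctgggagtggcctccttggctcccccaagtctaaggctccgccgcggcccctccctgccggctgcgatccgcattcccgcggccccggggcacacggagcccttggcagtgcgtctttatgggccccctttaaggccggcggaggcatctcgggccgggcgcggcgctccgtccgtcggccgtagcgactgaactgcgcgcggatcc
HOXD10, chr2:176116528-176116777: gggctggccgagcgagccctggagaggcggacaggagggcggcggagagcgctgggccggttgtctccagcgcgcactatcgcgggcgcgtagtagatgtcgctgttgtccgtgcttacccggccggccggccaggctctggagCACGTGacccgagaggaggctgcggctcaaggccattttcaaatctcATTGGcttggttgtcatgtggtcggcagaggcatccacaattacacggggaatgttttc
HOXD13, chr2:176092471-176092720: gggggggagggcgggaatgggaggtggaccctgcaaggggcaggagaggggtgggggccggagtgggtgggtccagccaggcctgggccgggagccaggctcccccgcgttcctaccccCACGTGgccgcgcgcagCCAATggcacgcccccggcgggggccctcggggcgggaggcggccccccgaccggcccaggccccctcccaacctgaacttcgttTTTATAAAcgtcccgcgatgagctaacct
The HOXD8 window held none of the 4 motifs and 28 CpG dinucleotides, that of HOXD10 held the E-box and the CCAAT box once each and 23 CpG, and that of HOXD13 held the E-box and the CCAAT box once each, the TATA box in 2 matches and 21 CpG. RefSeq windows were matched for 20 of the 39 genes, 26 different windows in all, and their median CpG count was 19.5 against 11 over all 35116 windows. CACGTG was in 8 of the 26 HOX windows and in 6.34% of all windows, CCAAT in 17 and in 32%, TATAAA in 5 and in 10.7%, and TGATTNAT in 2 and in 2.48%. A match describes letters in these windows and no binding was measured.

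**Figure D3:**
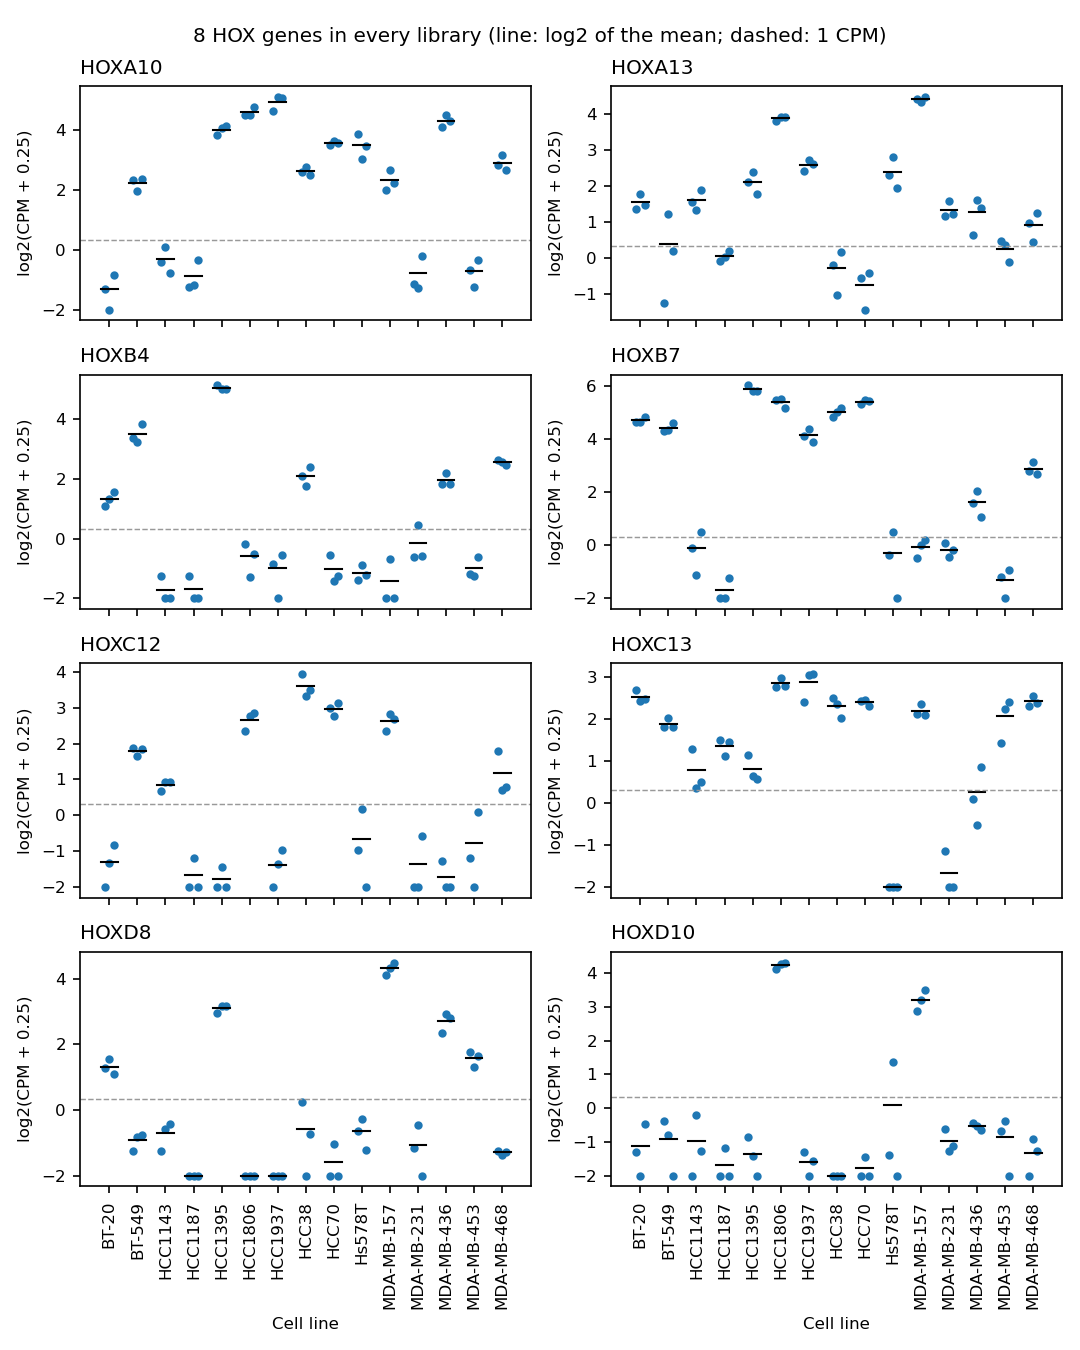
8 HOX genes (panels) in every library (points), on a log2 axis of CPM with a small constant added so that 0 can be shown, by cell line, with a short bar at the log2 of the mean of 3 libraries and a dashed line at 1 CPM. HOXA10 falls into a high and a low set of lines, HOXB7 has MDA-MB-436 and MDA-MB-468 between its high and its low lines, HOXC13 is at 0 in all 3 Hs578T libraries, and HOXD10 is high in HCC1806 and MDA-MB-157 only.

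Lines were compared by their whole HOX pattern, as a description across the 39 genes, which are not independent of each other and were measured on libraries of different depth. The most similar pair was HCC38 and HCC70 (Pearson r = 0.864), which shared 14 expressed genes, 82.4% of the 17 in HCC38 and 93.3% of the 15 in HCC70. BT-549 and HCC38 followed with r = 0.86, and HCC1143 and HCC1187 had r = 0.823. HCC70 and MDA-MB-231 had the lowest r, 0.0175, and shared no expressed gene. HCC38 and HCC70 were sequenced in different runs.

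Genes that lie next to each other varied together across the lines. Among the 35 genes expressed in at least 1 line, all 28 pairs of direct neighbours had a positive r over the 15 lines, with a median of 0.632. The median was 0.528 at 2 steps along the cluster, 0.489 at 3, 0.434 at 4 and 0.453 at 5 or more. Paralogs of different clusters had a median r of 0.244 over 35 pairs and unrelated members of different clusters 0.183 over 420 pairs. These values share libraries, and pairs within a cluster share genes, so they are descriptions with no test.

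Among direct neighbours, HOXD10 and HOXD11 had the highest r, 0.982, but they share exon bases on the same strand, 16.8% of those of HOXD10 and 21.4% of those of HOXD11, so part of the counts may be common to both. HOXA6 and HOXA7 followed with 0.862, HOXB6 and HOXB7 with 0.853 and HOXC10 and HOXC11 with 0.833. HOXA6 and HOXA7 both overlap HOXA-AS3 on the opposite strand, with 39.3% and 62.5% of their exon bases. Without a stated strand setting, both counts may hold its reads. Pairs farther apart in a cluster reached an r of 0.896. The lowest neighbours were HOXD4 and HOXD8 at 0.22, HOXB8 and HOXB9 at 0.256, and HOXA9 and HOXA10 at 0.375. Over all pairs of a cluster the median r was 0.561 in HOXA, 0.543 in HOXB, 0.434 in HOXD and 0.346 in HOXC.

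**Figure D4:**
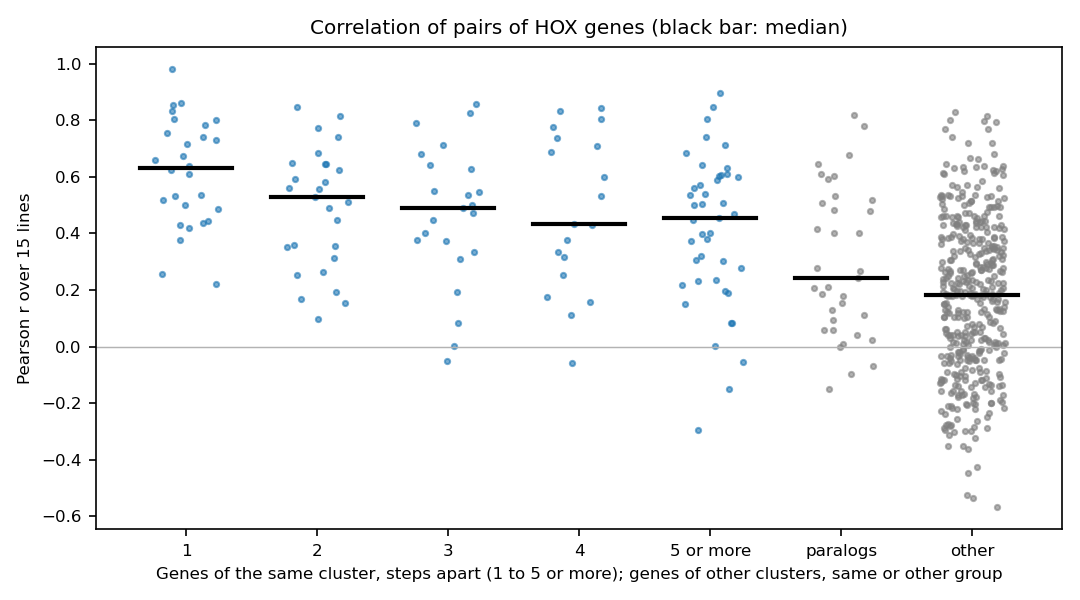
Pearson r over 15 lines for pairs of HOX genes, each point a pair, by the number of steps between genes of the same cluster and, for genes of different clusters, by whether they are paralogs, with a black bar at the median. The median falls from 0.632 for direct neighbours to 0.434 at 4 steps and is 0.183 for unrelated members of different clusters.

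Noncoding RNA genes within the clusters were examined as a list of 18. Of these, 15 reached 1 CPM in some line and 0 in every line, and 1 to 9 did so per line. HOTAIR, a long RNA of the HOXC cluster known for binding Polycomb, was highest in MDA-MB-468 (25.8 CPM) and HCC1937 (20.9 CPM). HOTAIRM1, at the 3′ end of HOXA, and HOXA-AS2 were also highest in MDA-MB-468, at 21.7 and 14.4 CPM, and HOXB-AS3 was highest in HCC38, at 19.1 CPM. Their levels followed those of the HOX gene beside them to different degrees, with r over 15 lines of 0.91 for HOXC-AS3 and HOXC10, 0.881 for HOXA-AS2 and HOXA3 and 0.86 for HOXC13-AS and HOXC13, but 0.172 for HOXA10-AS and HOXA9. HOTTIP, known from the 5′ end of HOXA, reached 1 CPM only in MDA-MB-157, at 1.05 CPM, the line with the highest HOXA13. Without a stated strand setting, reads of a HOX gene and its antisense partner cannot be told apart.

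Genes of the machinery around HOX expression were broadly present. Of 9 TALE cofactor genes 5 reached 1 CPM in every line. Of 13 Polycomb genes 11 reached 1 CPM in every line, as did all 11 trithorax and MLL genes. EZH2, the methyltransferase subunit, was highest in HCC1187, at 283.9 CPM. It was at 44.8 CPM in MDA-MB-231, which also expressed 3 HOX genes, and at 205.1 CPM in HCC70, which expressed 15. A link between these levels and HOX expression was not tested. PBX2 was below 1 CPM in every line, and RING1 and PCGF2 had no count in any library although both are widely used genes. Reads with several alignments may have been handled in a way that lowers some counts, which was not tested. Of 18 genes that flank the clusters or belong to the related ParaHox and EVX families 10 reached 1 CPM in every line, and CDX2, the intestinal ParaHox gene, did so in HCC1806 only, at 6.73 CPM. Of 13 retinoid genes, whose signal is a known inducer of HOX genes, 6 did so in every line.

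The 5 L-15 lines were compared with the 8 RPMI lines on counts summed per line, since libraries of a line are not replicates of a medium. By edgeR 0 of the 23 HOX genes tested were called, as was 0% of all 20505 genes in either direction, and 4 had an unadjusted p under 0.05. The log2 differences were negative (lower in L-15) for 19 of the 23, with a median of -1.09, beside -0.03 over all genes. The smallest adjusted p, 0.2796, was that of HOXB6, with a mean of 0.389 CPM in L-15 and 6.1 CPM in RPMI lines (log2 difference -3.95 ± 1.12, SE). HOXB7 was at 2.3 and 27 CPM (log2 difference -3.6). HCC1143 and HCC1187, both RPMI lines, were below most L-15 lines for both genes, so the groups overlapped. DESeq2's Wald test called these 2 genes lower, HOXB6 with an adjusted p of 0.002785 and HOXB7 with 0.01944, and called none of the other 21, beside 0.795% of all genes called higher and 1.19% lower by that test. No HOXD gene passed the filter. The medium came with the line, so medium and line cannot be told apart.

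The title of the series names breast cancer cells with high MYC, a transcription factor that drives growth, but the labels sort no line by MYC. The slope of each HOX gene on the log2 CPM of MYC, which ran from 4.1 in MDA-MB-453 to 7.62 in MDA-MB-231, was therefore tested over the 15 lines. By edgeR 0 of the 35 HOX genes tested were called, beside 0.00376% of all 26615 genes rising (MYC itself) and 0.143% falling. DESeq2 also called 0 of the 35, beside 0.47% of all genes rising and 0.534% falling. At an unadjusted p of 0.05 edgeR had 1 HOX gene, HOXB4, whose slope was 2.01 ± 0.9 (SE) log2 units per log2 unit of MYC, unadjusted p = 0.03904 and adjusted p = 0.7913. Slopes were positive for 23 of the 35, with a median of 0.41 beside 0.01 over all genes, but the HOX median was 0.02 without HCC1395 and also 0.02 without MDA-MB-453, the line lowest in MYC.

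For each cluster the 3 genes outside it whose level was most like the mean scaled level of its expressed members were found among 16797 to 16804 genes of at least 1 CPM, as a description over 15 lines. They were KCTD21-AS1 (r = 0.866), DHX57 (0.83) and ZNF488 (0.799) for HOXA and STK4 (0.891), ITPRIPL1 (0.85) and MAP3K14 (0.847) for HOXB. For HOXC they were SOCS4 (0.776), RFXAP (0.767) and UBE2L3 (0.761), and for HOXD CEP112 (0.908), MAPKBP1 (0.894) and CASC9 (0.887). MAP3K14 and CEP112 lie on chromosome 17, as HOXB does, and DHX57 and ITPRIPL1 on chromosome 2, as HOXD does, so none of the 12 lies on the chromosome of the cluster it resembles except MAP3K14. No test was made, and the genes compared share the 45 libraries. Picking the highest of so many r values over 15 lines gives high values even among unrelated genes.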

How the data were processed

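Per the labels' protocols, libraries were made with ScriptSeq v2 from RNeasy-purified total RNA after depletion with Ribo-Zero Gold. The submitters' processing notes name bcl2fastq 2.20.0.422, FastQC, MultiQC, Trimmomatic, STAR, featureCounts and GRCh38.p12. The strand setting, the annotation and the handling of overlapping genes and of multiple alignments are given in no source used here. Values are whole-number counts per gene and library as the authors deposited them, with no normalization, and all 45 columns were used. Of 64485 gene rows 58275 (90.4%) matched GENCODE release 29, which gave symbols, positions and exon lengths. Promoter windows and miRNAs came from RefSeq.

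Counts were scaled by TMM and tested with edgeR 4.0.16 (filterByExpr, minimum count 10 and minimum total 15; quasi-likelihood F test; Benjamini-Hochberg over all genes tested) in R 4.3.3. Each of 15 lines was a group of 3 libraries, and a line was called against the other lines at an adjusted p of 0.05 and a log2 fold change of at least 1. The comparison of media and the slope on MYC used counts summed per line. DESeq2 1.42.0 was an alternative, and limma 3.58.1 was added after seeing the data. The scripts were tested on simulated data. A library's total of 2312138 to 14653677 counts set the precision, and a floor of 3 counts was used for 0.

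The members and the gene lists were chosen with earlier results of these data known. Values per library are given for the HOX gene with the largest log2 fold change among those called higher in each line, and for those expressed in 1 or 2 lines. Other members were named after their values were seen. No 2 libraries were identical, and replicates of a line had r of 0.942 to 0.995. Per the labels, 11 lines were sequenced in runs 3 to 5 with the replicate number following the run, so the run pairs the libraries. In the deviations from line means, the median r was 0.09 over 165 same-run pairs (-0.216 to 0.421) and -0.0449 over 330 pairs of different runs. Values of some genes are not reported here.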

Additional observations from a re-analysis of the deposited data

Results flagged for a closer look

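The HOX level of MDA-MB-231, summed over the 39 genes, was 6.58 CPM per kb, far from the other 4 lines grown in L-15, which lay between 26.2 and 37.1. It was singled out by the gap between the lowest line and the next, set against the range of the group (Dixon's test). Of the 10 groups of lines examined in this way it was the only one, and chance alone singles out about 1 in 20 groups.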

How the results depend on the processing

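The replicate block, with the sequencing run as a term, gave 32 HOX genes that differed among lines, 160 higher and 88 lower calls, of which 157 and 87 were also made without it, so it changed no count by over 1.5 times. In the lines of runs 1 and 2 alone (4 lines, 20 HOX genes tested) 20 differed among lines, with 29 higher and 23 lower calls. In the 11 lines of runs 3 to 5 there were 119 higher and 72 lower calls. With 1 replicate of every line left out, lower calls fell to between 56 and 61 from 89 (90 without Hs578T replicate 2 alone), higher calls lay between 155 and 159 and expressed pairs between 222 and 226. No filter gave 174 and 95 calls, DESeq2 157 and 107, and limma 125 and 130. No alternative called a pair in the opposite direction. DESeq2 called 2 HOX genes lower in L-15 lines, against 0 by edgeR. A limit of 5 CPM left 95 expressed pairs and a limit of 1 CPM per kb left 142, against 223, and 0.5 CPM gave 297 and 2 CPM 182. Of the 14 gene and line pairs named as the largest in a line, 12 were called under all of their alternatives. HOXC12 in HCC1143 was not called in runs 1 and 2 alone (log2 0.9) or by limma (0.55), nor HOXD4 in MDA-MB-231 by DESeq2 (2.97) or limma (0.82). The cause was not tested. A count of 0 over a line's summed libraries allows up to 3 counts, which limits what can be said of the 70 such pairs.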
